A study of Danio rerio with 32 samples.

Results

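The genes described here encode proteins that hepatocytes make for the blood plasma, clotting proteins among them, together with a few enzymes and binding proteins that stay inside the hepatocyte. They were taken by name: 35 gene symbols were looked up in the table of counts, and 33 of them matched 1 of its 31658 genes. The remaining 2, hpx and hrg, are not analysed here. Messenger RNA was sequenced from liver and skeletal muscle of female adults of the zebrafish AB strain, either gys2 knockout or wild type; gys2 encodes the liver form of glycogen synthase. The 4 groups were gys2 knockout liver, wild-type liver, gys2 knockout muscle and wild-type muscle, with 8 libraries each from 8 fish of each genotype. Libraries were made by Lasy-Seq, which reads the 3′ end of polyadenylated transcripts, so that counts were not divided by transcript length. No treatment is named in the labels. The position of the gys2 lesion, its zygosity, whether the genotypes came from one cross, and which liver and which muscle came from the same fish are not given in the labels. Comparisons across tissues therefore treat their libraries as if from separate fish.

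Blood plasma owes most of its protein other than antibodies to the hepatocyte. Clotting ends when thrombin, cut from prothrombin by a cascade of serine proteases, turns soluble fibrinogen into fibrin; serpins and other inhibitors stop the proteases, and plasmin dissolves the clot. Other hepatocyte products carry iron, copper, haemoglobin, retinol, thyroid hormone and vitamin D through the blood, and in egg-laying females the liver also secretes the yolk precursor vitellogenin.

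Library totals ran from 2562717 to 15351773 counts in knockout livers and from 1514099 to 2366219 in wild-type livers, so that each knockout liver was deeper than each wild-type liver. In the 16 muscles they ran from 1664493 to 7264469. The targeted gene, gys2, averaged 1.08 ± 0.755 CPM, counts scaled to a library of 1000000, in knockout livers and 10.4 ± 6.30 CPM in wild-type livers (SD, n = 8 each; 1 to 19 counts in knockout and 6 to 37 in wild type), and in 7 of 8 knockout livers it was under the wild-type minimum; a 3′ count does not check a lesion elsewhere in the gene. Among the genes described here the smallest count of any of the 33 in any liver was 20 (f9b), and the largest was 296931 (tfa). Markers of hepatocytes, 14 genes of which 7 belong to the set itself, summed to between 48944 and 172689 CPM of the library total in knockout livers and between 44283 and 157863 CPM in wild-type livers, and none of the 14 was at 0 in either group. Of the 35 symbols, 4 (fabp10a, rbp2b, uox and ces3) name proteins that stay within the cell, so plasma protein does not describe each of them.

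Together the 33 genes took 4.86 ± 2.15% of all counts in knockout livers and 4.68 ± 2.08% in wild-type livers (mean ± SD, n = 8 each). Transferrin (tfa) gave 33.3% of these counts in knockout livers and 30.3% in wild-type livers, the fatty acid binding protein fabp10a 19.3% in knockout and 23.3% in wild-type livers, and the retinol carrier rbp4 9.46% in knockout and 9.08% in wild-type livers. A single library stood apart in each group. The genes took 9.86% of the counts of knockout liver 1, against 3.21% to 5.50% in the other 7 knockout livers, and 9.34% of those of wild-type liver 5, against 2.80% to 5.01% in the other 7 wild-type livers. Both libraries were also the lowest of their group for the 7 vitellogenin genes, at 5.44% of counts in knockout liver 1 (19.1% to 41.8% in the others) and 11.5% in wild-type liver 5 (16.6% to 35.2%). With vitellogenin counts left out of the total, the shares were 6.76 ± 1.597% in knockout livers and 6.04 ± 2.07% in wild-type livers, and the same libraries were highest, at 10.4% in knockout liver 1 and 10.6% in wild-type liver 5. In muscle the shares were far smaller, and the libraries numbered 6 stood apart, at 0.437% in knockout muscle 6 (0.104% to 0.142% in the other 7) and 0.826% in wild-type muscle 6 (0.101% to 0.150%). The numbers of genes with a log2 change above 0 between genotypes, and the muscle changes of genes described by single library, are given with and without them. Some other summaries of the set are given only with them, among them the medians by role and the counts against the wild-type median.

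**Figure D1:**
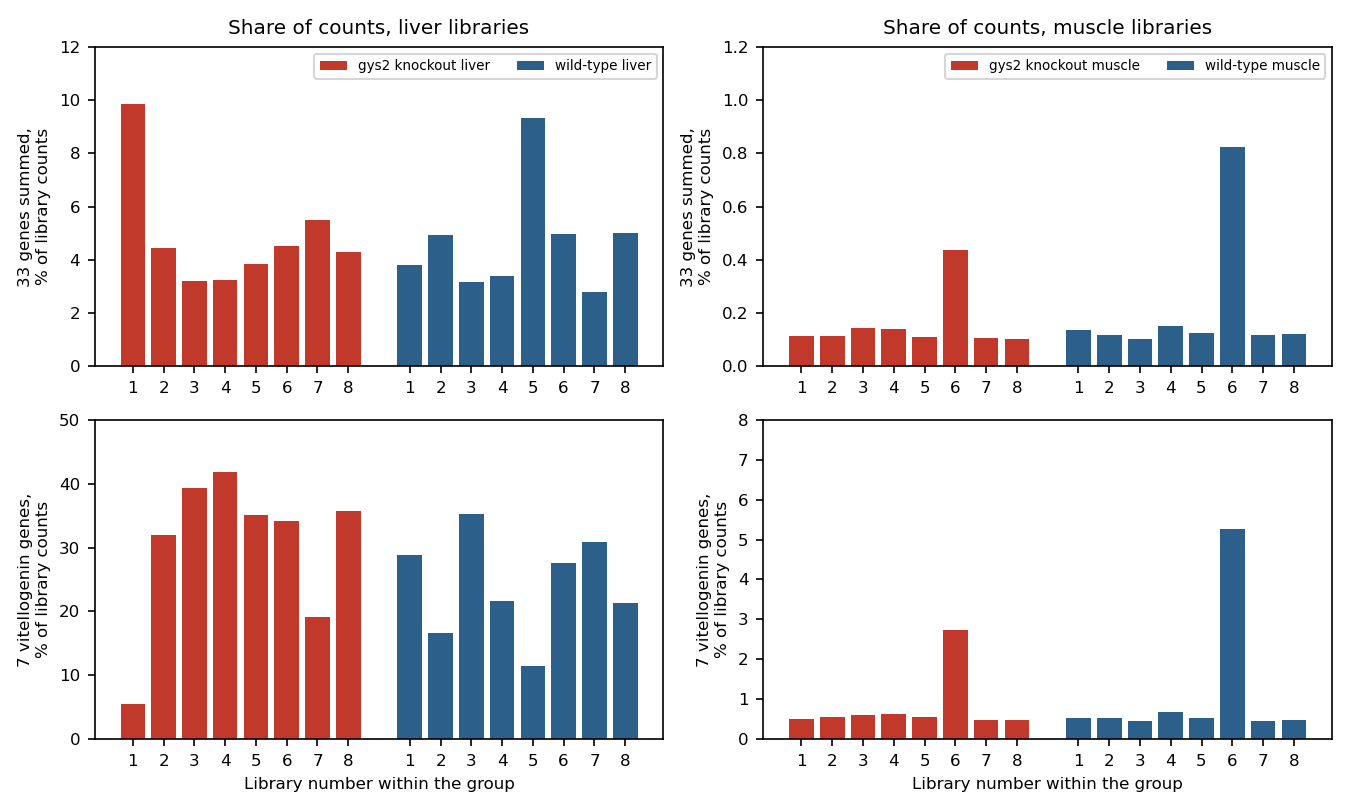
Share of each library's counts taken by the 33 plasma and coagulation genes (upper panels) and by 7 vitellogenin genes (lower panels), in percent, for 8 libraries per group (knockout left, wild type right; bars start at 0, and the scales of liver and muscle differ). Knockout liver 1 (9.86%) and wild-type liver 5 (9.34%) were the highest livers for the 33 genes, and both muscle libraries numbered 6 were high in both panels.

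Knockout livers were set against wild-type livers to ask whether loss of the liver glycogen synthase goes with a change in the transcripts of these secreted proteins. None of the 33 genes passed the test. Levels nevertheless leaned to the knockout side: the log2 change was above 0 for 31 of the 33. The median was 0.47, against -0.02 over all 9438 genes tested, and changes ran from -0.10 (ces3) to 0.99 (cp). When scaled by library totals, 18 of 33 were above 0, on a scale that put the median of all genes further below 0. The carriers of metals and haemoglobin had the highest median among the roles (0.85 over 3 genes), followed by the fetuins (0.64 over 3), the carriers of hormones and vitamins (0.60 over 4), the clotting factors (0.48 over 5), the fibrinogen chains (0.43 over 3), plasminogen and kininogen (0.43 over 2), the inhibitors (0.39 over 9) and the intracellular proteins (0.19 over 4).

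In edgeR's quasi-likelihood test, 0 of 33 genes reached an adjusted p under 0.05 (Benjamini-Hochberg), as 0.0742% of all tested genes did (7 of 9438). At an unadjusted p under 0.05, 11 of the 33 were higher and 0 lower in knockout livers, against 10.3% higher and 12.1% lower over all genes. A log2 change above 0 was found in 48.2% of all genes. With TMM scaling, each of the 8 knockout livers exceeded the wild-type median for 17 of the 33, which held for 7.22% of all genes. For 27 of the 33 at least 7 of 8 did, against 18.8%. The groups overlapped for each of the 33 (0.138% of all genes had each knockout liver above each wild-type liver). The 33 genes were measured in the same 16 libraries and vary together, so these counts are not independent. With the same TMM scaling, log2 changes of markers of other cell types were also above 0, for 13 of 13 tested genes of exocrine pancreas (median 0.76), 5 of 5 of erythrocytes (0.75), 6 of 7 of the bile ducts (0.60) and 7 of 9 of macrophages (0.51). Those of endothelium (0 of 4, median -0.26), thrombocytes (1 of 3, -0.36) and skeletal muscle (5 of 14, -0.08) were mostly below 0, those of stellate cells (3 of 6, 0.04) and ovary (3 of 6, -0.02) were evenly split, and edgeR called none of these markers at an adjusted p under 0.05. In bulk tissue, fewer cells of a type and less RNA per cell cannot be told apart.

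The number of changes above 0 depended on the scale and on single libraries. With library totals in place of TMM scaling (trimmed mean of M-values), 18 of 33 changes were above 0, with a median of 0.05 where the median of all genes was -0.54. With vitellogenin counts left out of the totals, 24 of 33 were above 0 (median 0.14, all genes -0.43) and cp was called. That scale also called many more of all genes than the main fit, most of them lower in knockout livers. Cyclic loess, which levels differences that follow abundance, left 25 of 33 above 0 with a median of 0.11 (0.02 over all genes). On each of these scales the median of the set was above that of all genes, by least with cyclic loess. Without wild-type liver 5, 33 of 33 were above 0 (median 0.75, 27 at an unadjusted p under 0.05), and without knockout liver 1 30 of 33 were (median 0.29, 7 at an unadjusted p under 0.05). Leaving out wild-type liver 7 left 6 of 33 at an unadjusted p under 0.05. With knockout liver 1 and wild-type liver 5 both left out, 33 of 33 were above 0 (median 0.52, 16 at an unadjusted p under 0.05). None of the fits that left out livers called any of the 33. Over all genes, leaving out 1 liver at a time gave 2 to 68 calls. Those fits put 4612 to 5186 of all genes above 0, against 4545 in the main fit. No share of all genes at an unadjusted p under 0.05 is set beside the counts of 27, 7, 6 and 16. By themselves these counts therefore do not show whether other genes shifted alike. With each library thinned to the depth of the shallowest, 31 of 33 were above 0 (median 0.46). DESeq2, limma-voom with sample quality weights and edgeR without the count filter each called the same 2, cp and serpinf2b. Each of these fits also called many more of all genes than the main fit. Those counts are given below with the dependence on processing.

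**Figure D2:**
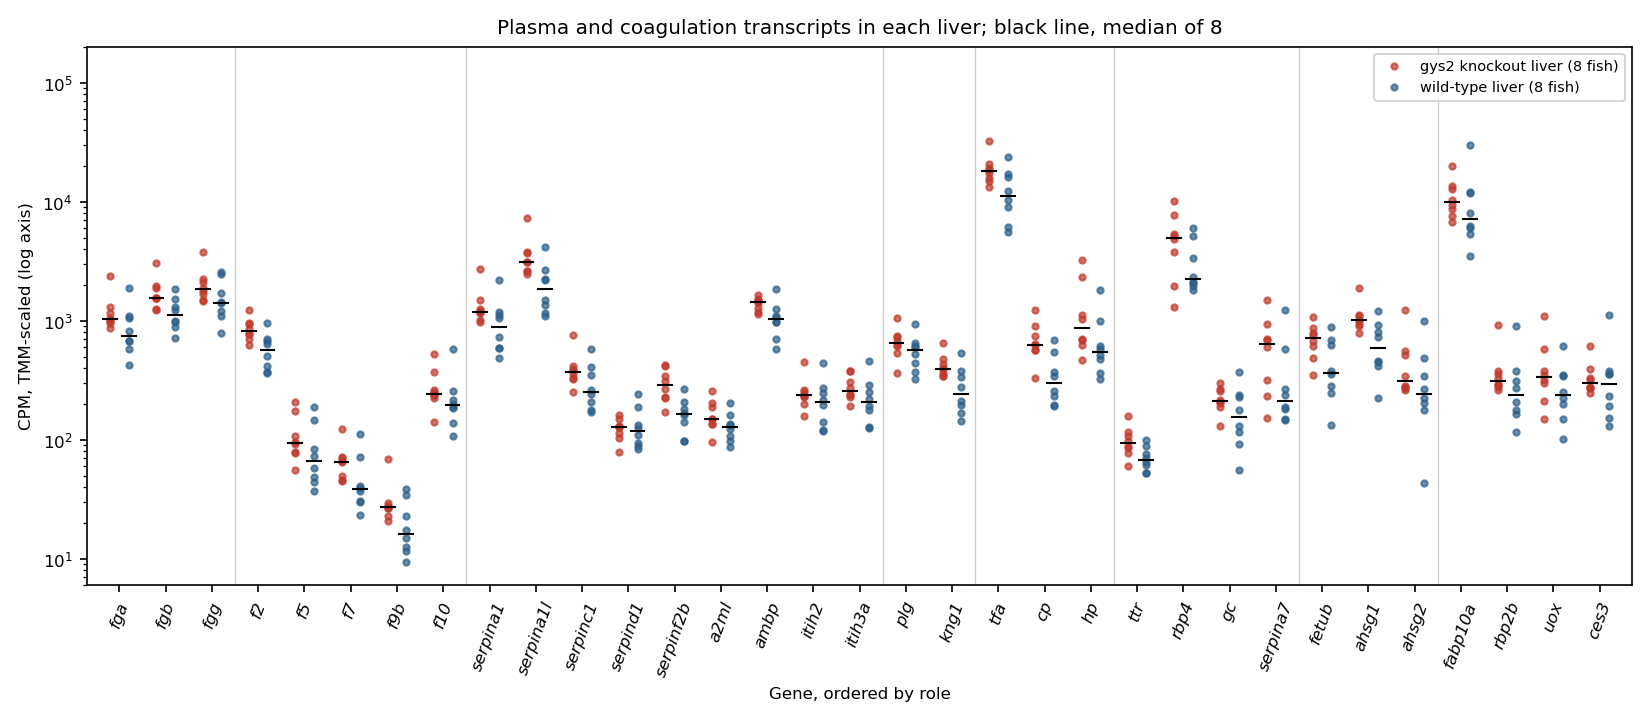
Level of each of the 33 genes in each liver, in TMM-scaled CPM on a log axis, with knockout (left, red) beside wild type (right, blue), 8 livers each, and the median as a black line; thin grey lines part the roles. With this scaling 31 of 33 log2 changes were above 0, and the ranges overlapped for each gene. With library totals 18 of 33 were above 0, on a scale that put the median of all genes further below 0.

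Fibrinogen is a hexamer of paired alpha, beta and gamma chains. For the genes whose single libraries are described, the lowest, median and highest of the 8 livers of a group are given, in TMM-scaled CPM. Statements on how many knockout livers exceeded the wild-type median use the same scale. In CPM of library totals, the lowest knockout liver was below the wild-type median for each gene so described. fga, the alpha chain, had 876, 1037 and 2379.6 CPM in knockout livers, against 426, 751 and 1888 CPM in wild-type livers. fgb, the beta chain, had 1225, 1558 and 3078 CPM in knockout livers, against 717, 1115 and 1867 CPM in wild-type livers. fgg, the gamma chain, had 1471, 1841 and 3781 CPM in knockout livers, against 795, 1419 and 2580.0 CPM in wild-type livers. Knockout liver 1 was the highest knockout liver and wild-type liver 7 the lowest wild-type liver for each chain. Log2 changes were 0.43 ± 0.27 for fga (adjusted p = 0.322), 0.57 ± 0.22 for fgb (0.159) and 0.37 ± 0.25 for fgg (0.349). Each of the 8 knockout livers was above the wild-type median for all 3 chains. With library totals fga (-0.029) and fgg (-0.093) turned to the other side of 0. In CPM of library totals the median of fgb was 1195 in knockout livers and 1266 in wild-type livers. The ratio of fga to fgg counts was 0.5264 to 0.641 in knockout livers (median 0.607) and 0.409 to 0.759 in wild-type livers (median 0.546). The ratio of fgb to fgg was 0.814 to 0.941 in knockout livers (median 0.849) and 0.589 to 0.901 in wild-type livers (median 0.790). Both ratios spanned a narrower range in knockout livers, and the ranges overlapped.

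Among the clotting factors, f2, prothrombin, the precursor of thrombin, had 622, 818 and 1230.2 CPM in knockout livers, against 366, 568 and 967 CPM in wild-type livers. Each of the 8 knockout livers was above the wild-type median, and 4 wild-type livers reached into the knockout range. In CPM of library totals the median of f2 was 651 in knockout livers and 650 in wild-type livers. Its log2 change was 0.56 ± 0.22 (unadjusted p = 0.0169, adjusted p = 0.155). The other factors had fewer counts. f5, the cofactor of factor X in the complex that cuts prothrombin, averaged 111 ± 52.6 CPM in knockout livers and 85.5 ± 54.9 CPM in wild-type livers (log2 change 0.38 ± 0.33, adjusted p = 0.487). f7, the protease that starts the cascade with tissue factor, averaged 67.0 ± 24.9 CPM in knockout livers and 48.2 ± 29.8 CPM in wild-type livers (log2 change 0.48 ± 0.29, adjusted p = 0.309). f10, the protease of the prothrombin-cutting complex, averaged 280.4 ± 116 CPM in knockout livers and 235 ± 148 CPM in wild-type livers (log2 change 0.26 ± 0.30, adjusted p = 0.610). These values are of 5 genes, and none passed the test. f9b, 1 of the factor IX genes of zebrafish, averaged 31.3 ± 15.4 CPM in knockout livers and 20.2 ± 10.9 CPM in wild-type livers (log2 change 0.65 ± 0.29, unadjusted p = 0.0372, adjusted p = 0.198). In the RefSeq annotation of GRCz12tu, f7 and f10 have 1 protein-coding gene between them, as do fgb and fga.

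The serpins and other inhibitors held the gene with the second smallest p. serpinf2b, an alpha2-antiplasmin, which inhibits plasmin, had 172, 289.9 and 426 CPM in knockout livers, against 96.9, 164 and 269 CPM in wild-type livers. Each of the 8 knockout livers exceeded the wild-type median, and 4 of them above the highest wild-type liver. The log2 change was 0.86 ± 0.25 (unadjusted p = 0.00206, adjusted p = 0.0973). Unlike most of the set, serpinf2b was not highest in knockout liver 1 (225 CPM) but in knockout livers 5 and 7 (426 and 419 CPM). serpina1l, an alpha1-antitrypsin-like serpin, had 2469, 3095 and 7263 CPM in knockout livers, against 1099.9, 1850.1 and 4144 CPM in wild-type livers. It too had each knockout liver above the wild-type median, with knockout liver 1 far above the other 7. The change on the log2 scale was 0.80 ± 0.27 (unadjusted p = 0.00714, adjusted p = 0.132). serpina1, the alpha1-antitrypsin gene, averaged 1374 ± 561 CPM in knockout livers and 994 ± 561 CPM in wild-type livers (log2 change 0.47 ± 0.28, adjusted p = 0.310). In GRCz12tu, serpina1l and serpina1 are neighbours with 0 protein-coding genes between them, and reads of such copies may be split between them, so their single values are uncertain. serpinc1, antithrombin, which inhibits thrombin and factor X, averaged 403 ± 152 CPM in knockout livers and 300.2 ± 139.7 CPM in wild-type livers (log2 change 0.42 ± 0.27, adjusted p = 0.326). serpind1, heparin cofactor II, a second thrombin inhibitor, averaged 124 ± 25.6 CPM in knockout livers and 133 ± 55.2 CPM in wild-type livers (log2 change -0.10 ± 0.24, adjusted p = 0.819). serpind1 was 1 of the 2 genes with a log2 change below 0.

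The remaining inhibitors are broad protease traps and the chains of the inter-alpha-trypsin inhibitor, a complex of bikunin with heavy chains. a2ml, an alpha2-macroglobulin-like trap, averaged 164 ± 49.9 CPM in knockout livers and 131 ± 38.1 CPM in wild-type livers (log2 change 0.32 ± 0.23, adjusted p = 0.385). ambp, the precursor of bikunin and alpha1-microglobulin, averaged 1398 ± 176 CPM in knockout livers and 1064 ± 382 CPM in wild-type livers (log2 change 0.39 ± 0.21, adjusted p = 0.251). ambp varied least of the 33 between knockout livers (coefficient of variation 12.6%). itih2, a heavy chain, averaged 253 ± 86.2 CPM in knockout livers and 219 ± 105 CPM in wild-type livers (log2 change 0.21 ± 0.27, adjusted p = 0.641). itih3a, another heavy chain, averaged 279 ± 68.2 CPM in knockout livers and 229.8 ± 107 CPM in wild-type livers (log2 change 0.28 ± 0.25, adjusted p = 0.499). None of these 4 passed the test.

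Plasminogen and kininogen act on the clot and in the contact system. kng1, kininogen, the precursor of bradykinin, had 343, 394 and 654 CPM in knockout livers, against 144, 243 and 535 CPM in wild-type livers. In 8 of 8 knockout livers it exceeded the wild-type median. edgeR gave a log2 change of 0.60 ± 0.25 (unadjusted p = 0.0250, adjusted p = 0.173). plg, plasminogen, which becomes plasmin, averaged 667 ± 197 CPM in knockout livers and 559 ± 195 CPM in wild-type livers (log2 change 0.25 ± 0.23, adjusted p = 0.505). The metal and haemoglobin carriers followed. cp, ceruloplasmin, a copper-carrying ferroxidase, had 328, 629 and 1243 CPM in knockout livers, against 192, 299 and 685 CPM in wild-type livers. Each knockout liver lay above the wild-type median, and 3 above the highest wild-type liver. Its change was the largest and its p the smallest of the 33, with a log2 change of 0.99 ± 0.29 (unadjusted p = 0.00191, adjusted p = 0.0946), and without single libraries in turn its adjusted p ran from 0.0529 to 0.203. tfa, transferrin, the iron carrier, had 13226, 18016 and 32274 CPM in knockout livers, against 5541, 11264 and 23792 CPM in wild-type livers. Transferrin again had each knockout liver above the wild-type median. The fitted log2 change was 0.60 ± 0.26 (unadjusted p = 0.0286, adjusted p = 0.181). hp, haptoglobin, which binds free haemoglobin, averaged 1275 ± 980.3 CPM in knockout livers and 709 ± 491 CPM in wild-type livers (log2 change 0.85 ± 0.43, adjusted p = 0.248). hp and cp, both acute-phase proteins in mammals, were highest in the same livers. Knockout livers 7 and 8, with 3217 and 2339.7 CPM of hp and 1243 and 905 CPM of cp, were the highest knockout livers for both. Wild-type liver 2, with 1812 CPM of hp and 685 CPM of cp, was the highest wild-type liver for both.

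The next 4 genes encode carriers of hormones and vitamins. rbp4, the plasma carrier of retinol, had 1300.5, 5005 and 10252 CPM in knockout livers, against 1809, 2225 and 5986 CPM in wild-type livers. 6 of 8 knockout livers were above the wild-type median, with knockout livers 7 and 8 below it. Its log2 change was 0.70 ± 0.37 (unadjusted p = 0.0713, adjusted p = 0.257). rbp4 did not share the pattern of the set across livers: it was highest in knockout liver 2 (10252 CPM) and wild-type liver 3 (5986 CPM), and wild-type liver 5 had 2138 CPM. ttr, transthyretin, a carrier of thyroid hormone and of rbp4, averaged 99.1 ± 29.7 CPM in knockout livers and 70.6 ± 16.5 CPM in wild-type livers (log2 change 0.49 ± 0.21, adjusted p = 0.182). gc, the vitamin D binding protein, averaged 222 ± 52.2 CPM in knockout livers and 177 ± 102 CPM in wild-type livers (log2 change 0.33 ± 0.30, adjusted p = 0.505). serpina7, named for the thyroxine-binding globulin of mammals, averaged 642 ± 438 CPM in knockout livers and 374 ± 378 CPM in wild-type livers (log2 change 0.78 ± 0.53, adjusted p = 0.369). serpina7 spread most between wild-type livers (coefficient of variation 101%), from 146 to 1239.7 CPM.

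Fetuins are cystatin-related plasma proteins; in mammals fetuin-A binds calcium phosphate and fetuin-B inhibits the protease that hardens the egg envelope. ahsg1, a fetuin-A gene, had 792, 1018 and 1900.4 CPM in knockout livers, against 224, 595 and 1205 CPM in wild-type livers. Each knockout liver was above the wild-type median. The log2 change was 0.75 ± 0.27 (unadjusted p = 0.0110, adjusted p = 0.143). ahsg2, the other fetuin-A gene, averaged 468 ± 331 CPM in knockout livers and 343 ± 295 CPM in wild-type livers (log2 change 0.45 ± 0.48, adjusted p = 0.578). fetub, fetuin-B, averaged 701 ± 226 CPM in knockout livers and 448 ± 256 CPM in wild-type livers (log2 change 0.64 ± 0.31, adjusted p = 0.220). In GRCz12tu, ahsg1 and fetub are neighbours with 0 protein-coding genes between them. The last 4 genes encode proteins that stay in the cell. fabp10a, the liver fatty acid binding protein and a standard zebrafish hepatocyte marker, had 6789.8, 9905 and 20041 CPM in knockout livers, against 3503, 7204 and 30264 CPM in wild-type livers. 7 of 8 knockout livers were above the wild-type median, yet the highest of the 16 was wild-type liver 5. The change on the log2 scale was 0.10 ± 0.37 (unadjusted p = 0.796, adjusted p = 0.889), and without single livers in turn it ran from -0.044 to 0.60. rbp2b, a cellular retinol binding protein, averaged 388 ± 221 CPM in knockout livers and 317 ± 254 CPM in wild-type livers (log2 change 0.29 ± 0.36, adjusted p = 0.631). uox, urate oxidase of the peroxisome, averaged 421 ± 298 CPM in knockout livers and 279 ± 159.9 CPM in wild-type livers (log2 change 0.60 ± 0.38, adjusted p = 0.331). ces3, a carboxylesterase, averaged 341 ± 118 CPM in knockout livers and 366 ± 322 CPM in wild-type livers (log2 change -0.10 ± 0.35, adjusted p = 0.879). ces3 was the other gene with a log2 change below 0.

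**Figure D3:**
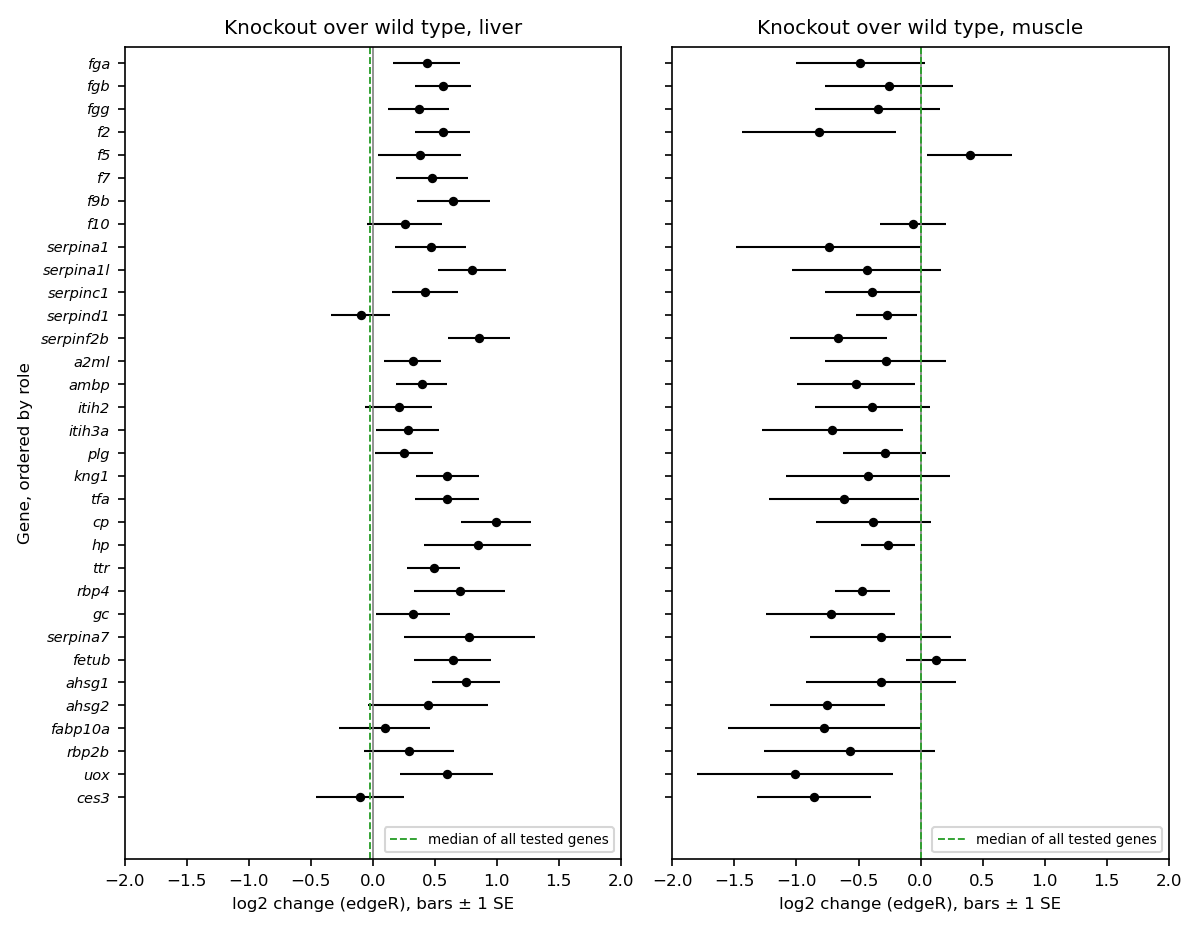
Log2 change of knockout over wild type in liver (left; 33 genes) and muscle (right; 30 genes that passed the count filter) from edgeR, with bars of ± 1 SE; dashed lines mark the median of all genes tested. In liver 31 of 33 points were above 0 (18 of 33 when scaled by library totals, which put the median of all genes further below 0). In muscle 2 of 30 were above 0. Of these 30, 10 were above 0 without both muscles numbered 6, 24 without that of the wild type alone and 1 without that of the knockout alone.

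Livers of one genotype differed from each other in most of the set at once. Knockout liver 1 was the highest of the 8 knockout livers for 27 of the 33 genes, and wild-type liver 5 the highest of the 8 wild-type livers for 25; over all tested genes knockout liver 1 was highest for 21% and wild-type liver 5 for 16.4%. Relative to the median of the other 7, knockout liver 1 stood at a median of 1.90-fold (from 0.716 for serpinf2b to 4.41 for ahsg2), and wild-type liver 5 at 2.38-fold (from 0.925 for rbp4 to 6.63 for serpina7). At the low end, knockout liver 2 was lowest for 14 of the 33, wild-type liver 4 for 16 and wild-type liver 7 for 12. The median coefficient of variation was 36.4% in knockout livers (19.6% without liver 1) and 50.4% in wild-type livers (39.1% without liver 5). Markers of exocrine pancreas, 14 genes with none at 0 in either group, summed to between 170 and 3136 CPM of the library total in knockout livers and between 136 and 2202 CPM in wild-type livers. Knockout liver 1 had the highest sum of its group (3136 CPM), and wild-type liver 5 had 1670 CPM. Markers of erythrocytes summed to 357 to 1298 CPM in knockout livers and 276 to 1254 CPM in wild-type livers, those of macrophages to 169 to 391 CPM in knockout livers and 207 to 424 CPM in wild-type livers, and those of thrombocytes to 340 to 1237 CPM in knockout livers and 276 to 811 CPM in wild-type livers. For each of these 3 lists the highest knockout liver was liver 1 and the highest wild-type liver was liver 5. The thrombocyte sum was mostly that of 1 of its 7 genes, fn1b. In knockout livers fn1b averaged 574 CPM where the sum averaged 591 CPM, and in wild-type livers 472 CPM where the sum averaged 503 CPM. In muscle fn1b averaged 55.2 CPM in the knockout and 47.9 CPM in the wild type, so the sum does not count thrombocytes alone. Bile duct markers were highest in knockout liver 1 (1336 CPM) among knockout livers and in wild-type liver 4 (929 CPM) among wild-type livers. Wild-type liver 4 was also highest of its group for markers of endothelium (158 CPM), ovary (188), stellate cells (145) and skeletal muscle (3983). The highest knockout livers for these were 7 (85.2 CPM), 5 (107), 1 (104) and 2 (2351). Vitellogenins took the least of the library total in knockout liver 1 (5.44%) and wild-type liver 5 (11.5%). The part of other cell types in these differences and in those between genotypes was not tested.

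**Figure D4:**
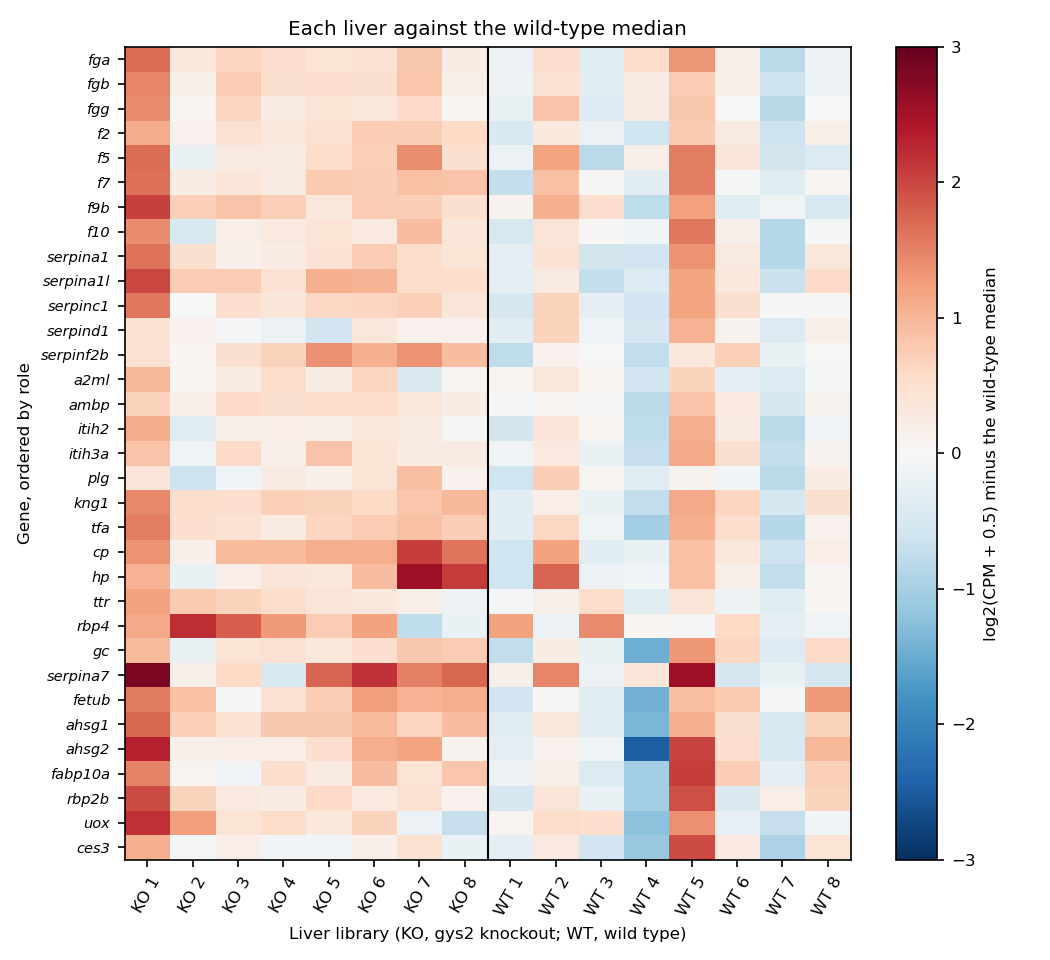
Log2(CPM + 0.5) of each gene in each liver minus the wild-type median of that gene (red above, blue below; colour scale from -3 to 3), with 8 knockout livers left of the line and 8 wild-type livers right of it. Knockout liver 1 and wild-type liver 5 were high for most genes, wild-type livers 4 and 7 low, and rbp4 followed another order.

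Other genes of the same pathways, taken from lists drawn up with earlier results of these data known, gave no call either. Of 41 listed genes of clotting, its control and fibrinolysis outside the set, 20 passed the count filter in liver; 12 had a log2 change above 0 and 8 below, with a median of 0.26. The smallest p values belonged to cpb2 (0.56 ± 0.21, adjusted p = 0.150), a carboxypeptidase that slows fibrinolysis, and to plaub (-0.50 ± 0.20, adjusted p = 0.165), a urokinase-type plasminogen activator. Of the vitamin K cycle, which the liver needs to gamma-carboxylate f2, f7, f9b and f10, 3 of 4 genes were tested and each was above 0 (median 0.60): vkorc1l1 (0.77 ± 0.35, adjusted p = 0.196), a vitamin K epoxide reductase, ggcx (0.46 ± 0.32, adjusted p = 0.374), the carboxylase itself, and nqo1 (0.60 ± 0.47, adjusted p = 0.436), a quinone reductase. Of 40 other secreted plasma proteins, 18 were tested and 18 were above 0 (median 0.33), with the smallest p for pon1 (0.76 ± 0.25, adjusted p = 0.123), a paraoxonase, and igfbp1a (1.92 ± 0.67, adjusted p = 0.145), an insulin-like growth factor binding protein. Of 28 listed genes of secretory pathway entry, 22 were tested and 21 were above 0 (median 0.41); sec61b (0.68 ± 0.26, adjusted p = 0.152) and sec61a1 (0.65 ± 0.25, adjusted p = 0.153), channel subunits of the endoplasmic reticulum, were among those with the smallest p. Of 18 hepatocyte transcription factors, 15 were tested and 13 were above 0 (median 0.44), with the smallest p for foxa2 (0.83 ± 0.34, adjusted p = 0.166) and hnf1bb (0.93 ± 0.41, adjusted p = 0.195). The medians stand beside -0.02 over all genes tested and 0.47 over the set.

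Liver was compared with muscle within each genotype; the genes were chosen as hepatocyte genes, so its direction was fixed by that choice. In the knockout, 33 of 33 were called higher in liver, where 21.2% of 11685 tested genes were, with log2 differences from 3.46 (fetub) to 7.21 (ahsg2) and a median of 5.97 (6.57 without knockout muscle 6). In the wild type, 33 of 33 were called higher in liver, where 15% of 10648 genes were, from 2.87 (fetub) to 5.96 (ahsg2) with a median of 4.91 (5.78 without wild-type muscle 6). Liver and muscle did not overlap for 33 of 33 genes in the knockout (5.8% of all genes, liver higher) and for 32 of 33 in the wild type (6.41%). The exception was fetub, whose lowest wild-type liver had 208 CPM and whose highest wild-type muscle had 226 CPM of the library total. That muscle was wild-type muscle 6. The other 7 wild-type muscles reached at most 90.9 CPM, under the lowest wild-type liver, so the overlap rested on this library.

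In muscles other than the libraries numbered 6, the genes stood at a median of 1.87% of their mean level in knockout liver and 2.00% of that in wild-type liver. These are medians of 7 muscles, in CPM of library totals. 8 genes in the knockout and 7 in the wild type exceeded 4%. In the knockout they were fetub (14.95%), serpind1 (13.8%), rbp4 (9.01%), f10 (7.83%), plg (6.47%), hp (5.63%), f5 (4.33%) and serpinc1 (4.12%). In the wild type they were rbp4 (11.99%), fetub (11.3%), serpind1 (9.44%), hp (6.39%), f10 (6.36%), plg (5.99%) and serpinc1 (4.59%). At the other end were f9b in the knockout, with a median of 0, and fabp10a in the wild type (0.914%). f9b had 0 counts in 7 of the 16 muscles, yet its wild-type median was 2.87% of liver. It also had the lowest mean level of the set in liver. Transcripts typical of one tissue were found in the other in both directions. The summed vitellogenins of these 7 muscles stood at 1.79% of liver in the knockout and 2.16% in the wild type, and 17 skeletal muscle markers in liver at 2.01% of their muscle level in the knockout and 2.92% in the wild type. How much of the muscle signal was made in muscle was not tested.

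The muscle libraries numbered 6 were highest of their 8 for 32 of 33 genes in the knockout and 33 of 33 in the wild type, where over all tested genes knockout muscle 6 was highest for 12.8% and wild-type muscle 6 for 15.2%. Their levels above the median of the other 7 muscles came to a median of 6.84% of the mean liver level in the knockout (2.49% to 14.4%) and 14.9% in the wild type (5.61% to 32.7%). Vitellogenins, counted the same way, came to 7.25% in the knockout and 19.6% in the wild type. Hepatocyte markers summed to 5179 CPM in knockout muscle 6, against 890 to 1294 CPM in the other 7, and to 10273 CPM in wild-type muscle 6, against 847 to 1420 CPM in the other 7. Skeletal muscle markers summed to 94519 CPM in knockout muscle 6, within the 93211 to 127324 CPM of the other 7, and to 76965 CPM in wild-type muscle 6, against 94584 to 121533 CPM in the other 7.

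**Figure D5:**
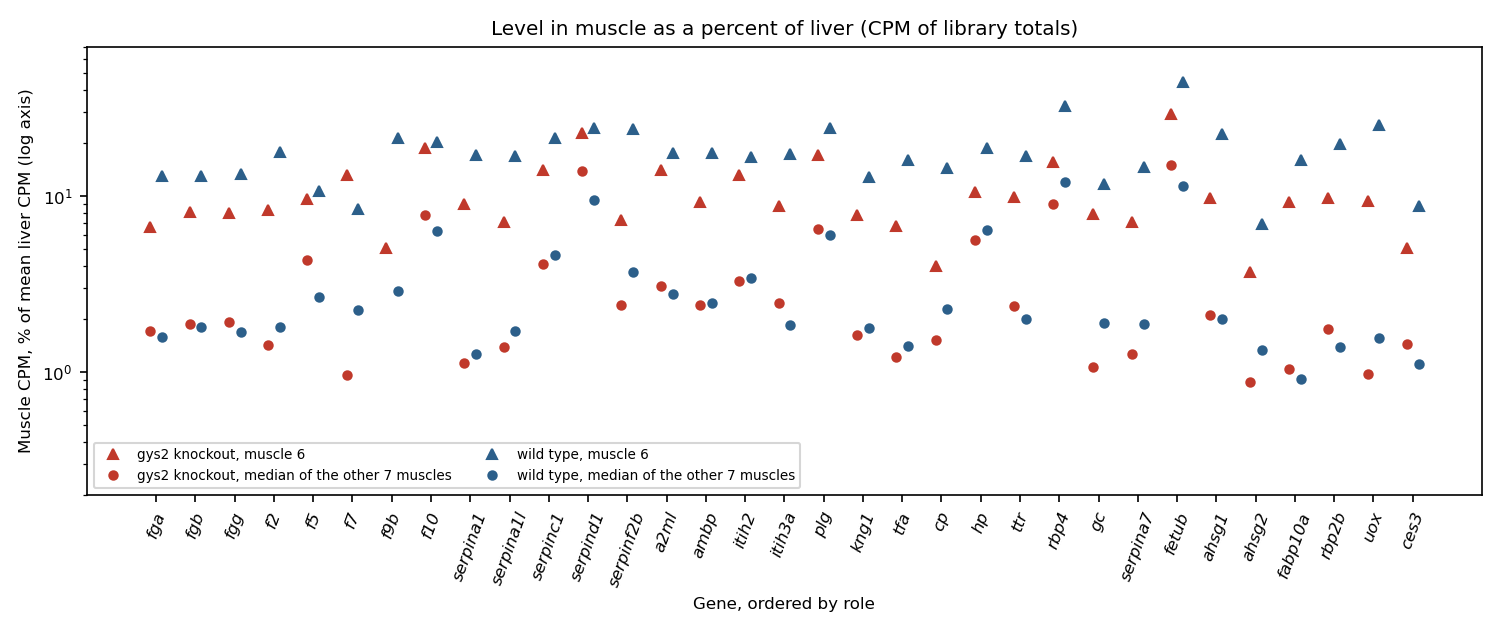
Level of each gene in muscle as a percent of its mean level in liver of the same genotype, in CPM of library totals on a log axis: muscle 6 (triangles) and the median of the other 7 muscles (circles), knockout left of wild type for each gene. Muscle 6 was above the median of the other 7 for each gene; f9b has no circle in the knockout because its median was 0.

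Between genotypes in muscle, none of the set passed the test. Of the 33 genes, 30 passed the count filter (ttr, f7 and f9b did not). edgeR called 0 of the 30, as it called 0% of all 12415 genes; at an unadjusted p under 0.05, 1 of the 30 was lower and 0 higher, against 4.74% of all genes either way. Over all genes, DESeq2 called 1 and edgeR without the filter 3, none of them in the set. The log2 change was above 0 for 2 of 30, f5 and fetub (50.6% of all genes), with a median of -0.43. Without both muscles numbered 6, 10 of 30 were above 0 (median -0.18). Leaving out 1 of them alone gave 24 of 30 (median 0.32) without wild-type muscle 6 and 1 of 30 (median -0.85) without knockout muscle 6. Over all genes, leaving out 1 muscle at a time put 6202 to 6633 above 0, against 6282 in the main fit. DESeq2 gave 13 of 30 above 0. No share of all genes is set beside this count or beside that without both muscles numbered 6.

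For rbp4, the gene of the set with the most counts in muscle, levels were 209, 404 and 571 CPM in knockout muscles, against 350.3, 487 and 1058 CPM in wild-type muscles (lowest, median and highest of 8). The groups overlapped. edgeR gave a log2 change of -0.47 ± 0.22 (unadjusted p = 0.0415, adjusted p = 0.951); it was -0.35 without both muscles numbered 6 and -0.26 without that of the wild type alone. tfa had 177, 209.6 and 985 CPM in knockout muscles, against 196, 225 and 2069 CPM in wild-type muscles, and fabp10a had 83.2, 106 and 788 CPM in knockout muscles, against 104, 121 and 1728 CPM in wild-type muscles. The highest value of each group was library 6 for both genes, and the other 7 libraries of the groups overlapped. Log2 changes were -0.61 ± 0.60 for tfa (adjusted p = 0.971) and -0.78 ± 0.78 for fabp10a (adjusted p = 0.971); without both muscles numbered 6 they were -0.17 for tfa and -0.22 for fabp10a, and without that of the wild type alone 0.39 for tfa and 0.66 for fabp10a. ces3 had 1.71, 4.06 and 13.2 CPM in knockout muscles, against 4.06, 4.87 and 33.4 CPM in wild-type muscles (log2 change -0.86 ± 0.46, adjusted p = 0.951). serpinf2b had 4.02, 6.94 and 16.2 CPM in knockout muscles, against 5.97, 7.76 and 41.1 CPM in wild-type muscles (log2 change -0.66 ± 0.39, adjusted p = 0.951). ahsg2 had 1.16, 3.75 and 13.8 CPM in knockout muscles, against 2.69, 5.69 and 24.5 CPM in wild-type muscles (log2 change -0.75 ± 0.46, adjusted p = 0.951). For each of these 3, library 6 was again the highest of its group, in counts as in CPM. Counts were low. They ran from 4 to 43 in knockout and 9 to 173 in wild-type muscles for ces3. For serpinf2b they ran from 12 to 53 in knockout and 15 to 213 in wild-type muscles. For ahsg2 they ran from 3 to 45 in knockout and 5 to 127 in wild-type muscles. Without both muscles numbered 6 the changes were -0.48 for ces3, -0.24 for serpinf2b and -0.66 for ahsg2. Without that of the wild type alone they were -0.085 for ces3, 0.023 for serpinf2b and -0.15 for ahsg2, and without that of the knockout alone -1.25 for ces3, -0.92 for serpinf2b and -1.25 for ahsg2.

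An interaction term over all 32 libraries tested whether the genotype difference itself differed between the tissues. edgeR called 0 of 33 genes, where 0.211% of 13725 genes were called; 7 of 33 were higher at an unadjusted p under 0.05 (12.2% of all genes higher). The interaction was above 0 for 33 of 33 genes (56% of all genes), from 0.13 to 1.97 with a median of 1.12 on the log2 scale. Without both muscle libraries numbered 6 it was above 0 for 32 of 33 with a median of 0.78, and with library totals for 28 of 33 with a median of 0.44. No share or median of all genes is set beside these refits, so they do not show whether other genes moved alike. Of the 33 genes, DESeq2 called serpinf2b alone. How many of all genes DESeq2 called for the interaction is not given, so this call does not set serpinf2b apart from other genes.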

How the data were processed

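The deposited table of the authors gives raw counts, whole numbers without normalization, for 32 libraries. Salmon 1.10.2, BWA 0.7.17-r1188, fastp 0.23.4 and the GRCz11 build are listed in the submitters' processing notes, without roles; annotation, strand setting and molecular identifiers are not given in the labels, so counting error is only part of the error. The table has 31658 genes, 1430 of them at 0 throughout, and 0 columns of no sample. The genes and lists were chosen with earlier results of these data known.

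Genotypes were compared within each tissue, tissues within each genotype, and their interaction over 32 libraries, with edgeR 4.0.16 (R 4.3.3): robust quasi-likelihood F test, TMM scaling, filterByExpr (minimum count 10, total 15), Benjamini-Hochberg adjustment over all tested genes and a threshold of 0.05. Errors of log2 changes are SE. CPM are TMM-scaled counts per 1000000 within a tissue, or counts per 1000000 of the library total where liver and muscle or marker sums are set side by side. Calls were checked with DESeq2 1.42.0 and limma 3.58.1 (voom), other scalings, filters, thinning, a replicate block and libraries left out; the fits were tested on simulated data. All 35 genes are named; single-library values are given for the 8 with the smallest p in liver, the 4 in muscle, the fibrinogen chains, f2 and the 3 with the highest mean in each tissue. Replicate numbers were not taken as pairs. 0 pairs of libraries were identical.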

Additional observations from a re-analysis of the deposited data

Results flagged for a closer look

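In a group of 8 libraries, the highest or lowest value was marked when its gap to the next exceeded Dixon's critical share of the whole range. For normally spread values chance alone meets this in about 1 group in 20. The values were not put on a log scale, so for skewed levels chance marks can be more frequent. Of the 13 measures examined per liver group (12 genes and the summed share) and 7 per muscle group, 8 were marked in knockout livers, 3 in wild-type livers, 6 in knockout muscles and 7 in wild-type muscles. Each mark fell on one of 4 libraries, and the genes share those libraries.

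Knockout liver 1 was marked for the share of counts taken by the 33 genes (9.86%, next 5.50%). In TMM-scaled CPM it was also marked for serpina1l (7263), ahsg1 (1900.4), fgb (3078), kng1 (654), tfa (32274), fga (2379.6) and fgg (3781). Wild-type liver 5 was marked for the share (9.34%, next 5.01%), fga (1888 CPM) and fabp10a (30264 CPM).

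Knockout muscle 6 was marked for the share (0.437%, next 0.142%) and for ces3 (13.2 CPM), serpinf2b (16.2 CPM), ahsg2 (13.8 CPM), tfa (985 CPM) and fabp10a (788 CPM). Wild-type muscle 6 was marked for the share (0.826%, next 0.150%), rbp4 (1058 CPM), ces3 (33.4 CPM), serpinf2b (41.1 CPM), ahsg2 (24.5 CPM), tfa (2069 CPM) and fabp10a (1728 CPM).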

How the results depend on the processing

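Of the recomputed log2 changes of the genes described by single library, single left-out libraries aside, 191 kept their direction and their side of the threshold, 7 newly passed it and 7 turned. In liver, DESeq2 called 2 of the 33 genes and 332 of all genes, limma-voom 2 and 215, and edgeR without the filter 2 and 99, against 0 and 7. Library totals called 0 and 3249 (16 higher and 3233 lower, against 6 and 1), and with vitellogenins left out 1 and 2365 (38 higher and 2327 lower). At least 50 counts in 8 libraries gave 48 genes, and thinning 3. The gene cp passed in DESeq2 (1.01, adjusted p = 0.0339), limma-voom (1.01, 0.0425), without the filter (1.12, 0.0373) and with totals without vitellogenins (0.68, 0.0379), and serpinf2b in the first 3 of these (0.87, 0.87 and 0.99). Log2 changes turned with library totals for fga (-0.029), fgg (-0.093) and fabp10a (-0.33), with cyclic loess for fgg (-0.086) and fabp10a (-0.32), and with totals without vitellogenins for fabp10a (-0.20). Leaving out 1 library gave 0 of the 33 and 2 to 68 of all genes, and -0.044 to 0.60 for fabp10a. In muscle, DESeq2 called 1 gene, no filter 3 and 0 of the set, and leaving out 1 library 0 to 1; serpinf2b turned in DESeq2 (0.041), and without single libraries serpinf2b ran from -0.92 to 0.023, tfa from -1.17 to 0.39, fabp10a from -1.66 to 0.66, ces3 from -1.25 to -0.085, ahsg2 from -1.25 to -0.15 and rbp4 from -0.55 to -0.26. The interaction was called for 1 gene of the set by DESeq2, with no count over all genes beside it. The causes were not tested. Fits without knockout liver 1 and wild-type liver 5 or both muscles numbered 6, and with totals without vitellogenins, were chosen after seeing the data.

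With the replicate number as a block, 0 of the 33 genes were called in liver (32 of 33 above 0, median 0.54; 5 of all genes) and 0 in muscle (2 of all genes), and the calls between tissues and of the interaction did not change. Between knockout and wild type, same-numbered libraries correlated over 0.1 in 3 of 8 pairs in liver and 6 of 8 in muscle (up to 0.546). In liver 2 of 8 and in muscle 3 of 8 correlated best with their own number. Between liver and muscle, the pairs that could share a fish, 0 of 8 wild-type and 2 of 8 knockout pairs exceeded 0.1. The labels name no pairs, and the numbers were not taken as pairs in the main fits. Whether libraries of 1 number share an effect was not tested.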
